A study of Mus musculus with 4 samples.

Results

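Semaphorins, plexins and neuropilins were taken as the genes of a mouse array whose symbol starts with Sema followed by a digit, with Plxn or with Plxdc, plus the neuropilin Nrp2. Nrp1 was not analysed here. This gave 31 of 19505 genes with 1 probe set each: 19 semaphorins, 9 plexins, and 3 others (Nrp2, Plxdc1 and Plxdc2). The 4 libraries were sorted cardiac macrophages named Ccrl2, CD74, CD163 and Trem2 by title, and each was 1 array. All came from wild-type C57BL/6N mice, 15 to 16 weeks old, that had undergone transverse aortic constriction (TAC), a narrowing of the aorta that raises the pressure load on the heart. The hearts of 6 mice were mixed before sorting, so the spread between animals was not measured. No unoperated hearts were among the 4 libraries. The labels disagree on the time after TAC, with 8 weeks in the source names and 1 week in the growth protocol. For the library titled CD74 the source name gives CD9, and Lyve1 appears in the growth protocol in place of the CD163 of the titles.

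Semaphorins are secreted or membrane-bound cues that guide growing axons and also steer the adhesion and migration of leukocytes and endothelial cells. Plexins are their main receptors and act on small GTPases. Neuropilins serve as co-receptors for the secreted class 3 semaphorins and for vascular endothelial growth factors. Plxdc1 and Plxdc2 are membrane proteins with a plexin-like domain, described on tumour endothelium, and are not semaphorin receptors in the usual sense.

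Each population was 1 array, so there is no test and no error for any difference below, and each describes these 4 arrays. All levels are the deposited log2 values of a gene's own probe set, so levels of different genes were not ranked. A value was counted as above background when it exceeded its library's ceiling, the 95th percentile of 1500 chemosensory receptor and keratin-associated protein genes. The ceiling was 5.67 in the Ccrl2 library, 6.53 in CD74, 6.28 in CD163 and 5.51 in the Trem2 library. A gene was called different between libraries at 1 log2 unit (2-fold) or more, with the higher value above its ceiling and a value under the ceiling set at it, which makes the fold a lower bound ("at least").

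The macrophage identity of the libraries was checked first. Of 9 macrophage markers, all lay above the ceiling in Ccrl2, CD163 and Trem2 and 7 did in CD74, where Mertk and Fcgr1 were under it. Their summed log2 level was 139.2 in the Ccrl2 library, 76.4 in CD74, 130.0 in CD163 and 133.2 in the Trem2 library. Of 9 T and NK cell markers, 0 were above the ceiling in the Ccrl2 library, 8 in CD74, 1 in CD163 and 6 in the Trem2 library, with sums of 43.5, 81.9, 47.1 and 60.9. The CD74 library thus had the lowest macrophage and the highest T and NK cell sum of the 4. In bulk samples such as these, fewer cells of a type and less RNA per cell cannot be told apart. Whole-array differences also matter for all results below: 38.2% of all genes were above the ceiling in the Ccrl2 library, 18.6% in CD74, 25.6% in CD163 and 41.8% in the Trem2 library.

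Of the 31 genes, 14 passed the ceiling of 1 library or more (45.2%, against 47.9% of all genes). They were 7 of 19 semaphorins, 5 of 9 plexins, Nrp2 and Plxdc2. In Ccrl2 14 were above it, in CD74 3, in CD163 8 and in Trem2 13, or 45.2%, 9.68%, 25.8% and 41.9% of the family. Only Plxnc1 and Sema6b were above it in all 4 libraries. The 14 genes include each one that passed in Ccrl2, and the one missing from Trem2 was Plxna1.

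**Figure D1:**
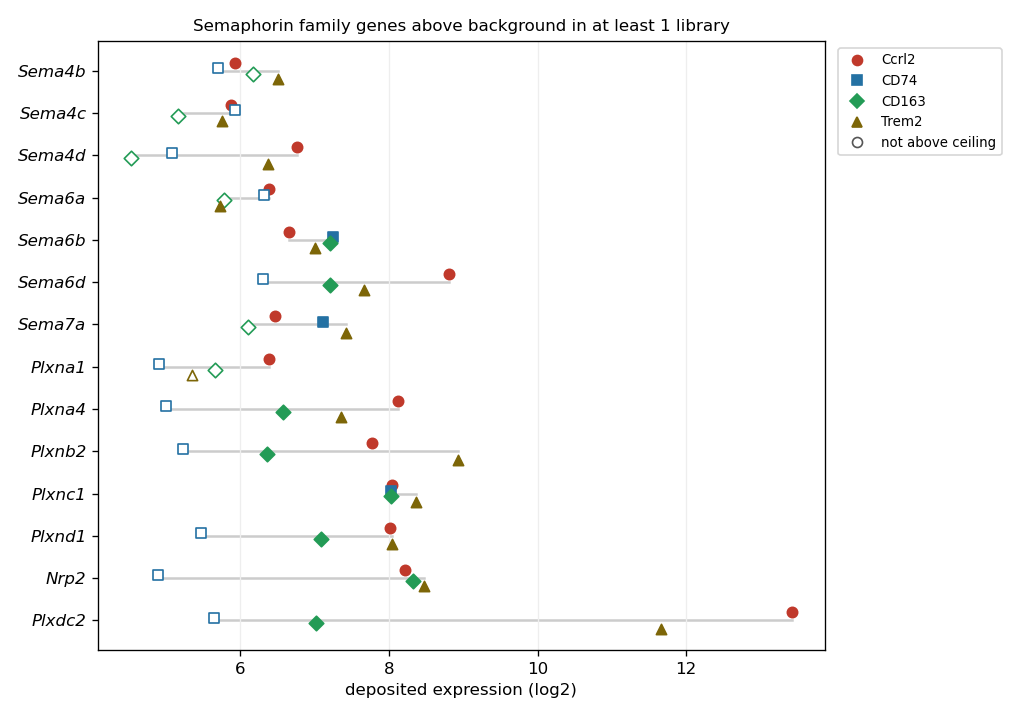
Deposited log2 expression (horizontal axis) of the 14 family genes above the background ceiling in at least 1 library, 1 point per library and gene, filled where above that library's ceiling and open where not. Plxdc2 spans the widest range, 5.65 to 13.42, while Plxnc1 lies between 8.03 and 8.36, and CD74 is filled for 3 genes.

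Promoter sequences are shown for 4 family genes above the ceiling, each with exactly 1 start in the RefSeq promoter table (GRCm38.p6). Genes on 1 chromosome were left out of the printing, so the 4 need not be all such genes. Nrp2 and Plxnd1 were under the ceiling in CD74 and no other library, and Plxnc1 and Sema7a were above the ceiling in CD74. The table held windows for 24 of the 31 genes and for 10 of the 14. Each window of 300 bases runs from 250 bases before the start to 50 after it and is printed 5′ to 3′ on the gene's strand. Capitals mark GAGGAA, the core of sites for PU.1, the lineage factor of myeloid cells, searched on both strands.
Nrp2, chr1:62703067-62703366, plus strand: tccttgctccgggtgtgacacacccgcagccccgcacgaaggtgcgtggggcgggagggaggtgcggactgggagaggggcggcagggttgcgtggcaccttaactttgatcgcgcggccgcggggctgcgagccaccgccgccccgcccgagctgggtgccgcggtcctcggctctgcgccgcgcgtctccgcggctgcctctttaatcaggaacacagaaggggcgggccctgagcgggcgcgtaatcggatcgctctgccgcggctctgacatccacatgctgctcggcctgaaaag
Plxnd1, chr6:115994956-115995255, minus strand: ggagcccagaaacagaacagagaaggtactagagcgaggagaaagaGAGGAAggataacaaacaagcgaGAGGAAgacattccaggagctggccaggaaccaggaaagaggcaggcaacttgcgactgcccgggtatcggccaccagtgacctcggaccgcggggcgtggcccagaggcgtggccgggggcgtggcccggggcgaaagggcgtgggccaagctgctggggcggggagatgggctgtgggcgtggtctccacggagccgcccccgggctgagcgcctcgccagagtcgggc
Plxnc1, chr10:94944796-94945095, minus strand: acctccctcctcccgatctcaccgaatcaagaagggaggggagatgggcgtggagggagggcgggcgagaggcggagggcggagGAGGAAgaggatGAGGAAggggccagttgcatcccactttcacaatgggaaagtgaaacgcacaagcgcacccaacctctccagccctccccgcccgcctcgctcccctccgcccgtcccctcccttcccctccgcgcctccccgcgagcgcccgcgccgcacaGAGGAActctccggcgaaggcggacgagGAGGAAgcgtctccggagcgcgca
Sema7a, chr9:57939862-57940161, plus strand: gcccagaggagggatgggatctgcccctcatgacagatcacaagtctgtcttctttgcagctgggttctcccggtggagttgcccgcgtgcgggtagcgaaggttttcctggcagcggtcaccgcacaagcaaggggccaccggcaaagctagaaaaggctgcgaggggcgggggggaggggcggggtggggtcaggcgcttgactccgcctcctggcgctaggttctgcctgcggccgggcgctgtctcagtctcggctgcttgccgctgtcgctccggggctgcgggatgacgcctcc
GAGGAA occurred 2 times in the Plxnd1 window and 4 times in the Plxnc1 window, with 0 in Nrp2 and 0 in Sema7a. It was present in 28.3% of all 32851 promoter windows and in 5 of 17 windows of the 10 genes. TGANTCA, the AP-1 site, was in 7.81% of all windows and 3 of the 17, and TATAAA in 13.6% and 0 of the 17. None of the 4 printed windows held TGANTCA or TATAAA. Their GC content was 70.7% (Nrp2), 67.0% (Plxnd1), 69.0% (Plxnc1) and 67.3% (Sema7a), against a median of 52.7% over all windows. Plxnd1 and Plxnc1 thus shared GAGGAA, and Nrp2 and Sema7a lacked it. Among these 4 genes the letters did not separate those under the CD74 ceiling from those above it.

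The first question was which family genes stood out in 1 library against each of the other 3. In Ccrl2, 2 of 31 genes (6.45%), Plxdc2 and Sema6d, exceeded each other library by 2-fold or more, against 1.25% of all genes. After quantile normalization Plxdc2 alone did so. In Trem2, Plxnb2 alone was higher (background 1.85%). In CD74 Nrp2 alone was lower (4.89%), and in CD163 0 genes stood out in either direction (0.4% higher, 1.69% lower). No family gene was higher in CD74 (0.851%) or lower in Ccrl2 (0.0564%) or Trem2 (0.0615%). With 31 genes, 1 gene is 3.23% of the family, so single calls in Trem2 and CD74 are near the background.

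Plxdc2 had the widest spread of the family, 7.77 log2 units between its highest and its lowest value. Its level was 13.42 in Ccrl2, 5.65 in CD74 (under the ceiling), 7.02 in CD163 and 11.66 in Trem2. Ccrl2 and Trem2 thus held a high pair of values, with CD163 close above its ceiling and CD74 under it. The Ccrl2 value was 3.39-fold the Trem2 value and at least 119-fold that of CD74, a difference of 6.40 log2 units from CD163 (84.4-fold). CD74 was at least 35.0-fold and CD163 24.9-fold below Trem2. Each of these 5 differences stayed above 2-fold after quantile normalization, with 5.83, 5.43, 1.90, -3.93 and -3.53 log2 units for Ccrl2 minus CD74, Ccrl2 minus CD163, Ccrl2 minus Trem2, CD74 minus Trem2 and CD163 minus Trem2. Its relative Plxdc1 was not above the ceiling in any library, at 3.83, 3.89, 4.11 and 3.77 in Ccrl2, CD74, CD163 and Trem2.

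Markers of stromal cells were read beside Plxdc2. Of 7 fibroblast markers, 6 were above the ceiling in the Ccrl2 library, 2 in CD74, 3 in CD163 and 6 in the Trem2 library, with summed log2 levels of 61.7, 42.0, 42.8 and 57.7. Dcn, which encodes the matrix proteoglycan decorin, had 12.65, 4.71, 7.01 and 12.67 in the same order, high in the same pair of libraries. Col1a1, a fibrillar collagen chain, did not follow that order, with 7.92, 7.87, 6.82 and 6.91. Of 7 endothelial markers, 5, 2, 4 and 5 were above the ceiling, with sums of 51.3, 38.9, 44.1 and 52.0, and Tek and Cldn5 were under it in every library. Cdh5 (10.86, 6.36, 7.47 and 11.31), Kdr (9.20, 5.44, 6.59 and 9.03) and Emcn (7.84, 5.24, 7.12 and 7.43) were highest in Ccrl2 and Trem2, like Plxdc2. Pecam1 was too, with 7.70, 6.97, 6.02 and 8.66. Esam, an endothelial adhesion molecule, went the other way. It had 6.06, 6.84, 7.27 and 5.78 and was lowest in the libraries where Plxdc2 was high. The fibroblast marker Tcf21 was under the ceiling in every library. The part of these cells in the Plxdc2 values was not tested.

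The semaphorins above the ceiling belonged to classes 4, 6 and 7. Class 4 had 3 of 5 genes above the ceiling, class 6 had 3 of 4 and class 7 its single gene. All 7 class 3 and both class 5 genes were under it in every library. Sema6d, a transmembrane ligand of plexin A1, had 8.81 in Ccrl2, 6.31 in CD74 (under the ceiling), 7.21 in CD163 and 7.66 in Trem2. It was highest in Ccrl2, by 2.22-fold over Trem2, 3.03-fold over CD163 and at least 4.86-fold over CD74. After quantile normalization the excess over Trem2 was 1.06 log2 units and that over CD163 0.80, under 2-fold. CD74 was at least 1.13 log2 units below Trem2, and 0.37 below it after that step (-0.37 for CD74 minus Trem2).

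Sema7a is tethered to the membrane by a lipid anchor and binds plexin C1 and beta 1 integrins. It had 6.46 in Ccrl2, 7.11 in CD74, 6.10 in CD163 (under the ceiling) and 7.42 in Trem2, so CD74 and Trem2 were the high pair. CD163 was at least 2.20-fold below Trem2. After quantile normalization that difference was -0.65 and Sema7a was highest in CD74, at 7.70 against 7.05 in Trem2. CD74 and Trem2 were also the libraries with the highest sums of T and NK cell, B cell, neutrophil and dendritic cell markers. Of 8 dendritic cell markers, 6 were under the ceiling in every library, and only Ccr7 and Cd209a passed it anywhere. The dendritic cell sum was 51.0 for CD74, but 45.9 for Trem2 lay close to 44.3 for Ccrl2. Ccr7 had the widest range of these markers, with 14.97 for CD74, 11.68 for Trem2, 11.38 for Ccrl2 and 9.94 for CD163. The part of T and NK cells, B cells, neutrophils and dendritic cells in the Sema7a values was not tested.

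Sema4d, known as CD100 and bound by plexins B1 and B2 and by Cd72, had 6.76 in the Ccrl2 library, 5.08 in CD74, 4.53 in CD163 and 6.37 in the Trem2 library, and was above the ceiling in Ccrl2 and Trem2 alone. Since the ceilings of CD74 and CD163 lie at 6.53 and 6.28, no 2-fold difference can be stated for it: Ccrl2 was 0.23 log2 units above the first ceiling and 0.48 above the second. Sema4b had 5.93, 5.70, 6.17 and 6.51 in Ccrl2, CD74, CD163 and Trem2, and passed the ceiling in Ccrl2 and Trem2. Sema4c, a ligand of plexin B2, had 5.87, 5.93, 5.16 and 5.75 in the same order, and passed in the same 2 libraries by 0.20 and 0.24.

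Of the other class 6 genes, Sema6b was the even one. It had 6.65 in the Ccrl2 library, 7.25 in CD74, 7.21 in CD163 and 7.00 in the Trem2 library, a range of 0.60. After quantile normalization the same gene was 1.38 log2 units lower in Ccrl2 than in CD74 and 1.20 higher in CD74 than in Trem2, so its evenness was lost in that step. Sema6a, which binds plexins A2 and A4, had 6.38, 6.32, 5.78 and 5.72 in Ccrl2, CD74, CD163 and Trem2, above the ceiling in Ccrl2 and Trem2.

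The 17 genes under the ceiling in all 4 libraries lay between 3.63 and 6.19. They comprised the secreted class 3 genes Sema3a to Sema3g, Sema4f, Sema4g, Sema5a, Sema5b, Sema6c, the plexins Plxna2, Plxna3, Plxnb1 and Plxnb3, and Plxdc1. Nearest to a ceiling were Sema4f, 0.14 under it in Ccrl2 (5.53) and 0.01 in Trem2 (5.50), and Sema3e, 0.34 under it in CD74 (6.19) and 0.14 in CD163 (6.14). Just above a ceiling was Plxnb2 in CD163, by 0.08. No level can be set against another for these genes.

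Among the receptors, Plxnb2 stood out in Trem2. This plexin, a receptor for class 4 semaphorins, had 7.77 in Ccrl2, 5.23 in CD74 (under the ceiling), 6.36 in CD163 and 8.93 in Trem2. Trem2 was the single highest library, Ccrl2 followed, and CD163 and CD74 were low. Ccrl2 was 2.23-fold below Trem2, and CD163 5.94-fold and CD74 at least 5.28-fold below it. Between Ccrl2 and CD163 the difference was 2.66-fold. After quantile normalization Plxnb2 stayed more than 2-fold lower in CD74 (-1.42) and CD163 (-1.81) than in Trem2, while Ccrl2 minus Trem2 was -0.88, Ccrl2 minus CD163 0.93 and Ccrl2 minus CD74 0.54, all under 2-fold. Of 7 neutrophil markers, 3 were above the ceiling in the Ccrl2 library, 5 in CD74, 1 in CD163 and 5 in the Trem2 library. Their summed log2 levels were 42.4, 48.0, 38.3 and 72.3, highest in Trem2 as well. CD74 had the next highest sum but the lowest Plxnb2 value. The sums of B cell, endothelial, mural cell and cardiomyocyte markers were highest in Trem2 too, at 45.5, 52.0, 37.6 and 52.1. In Ccrl2 they were 35.7, 51.3, 36.9 and 51.9, so all but the B cell sum were close to those of Trem2. Of 7 mural cell markers, 4 were under the ceiling in every library, as were the neutrophil markers Camp and Ltf. The part of neutrophils and of these other cells in the Plxnb2 values was not tested.

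Plxna4 pairs with neuropilins to receive class 3 signals and also binds class 6 semaphorins. It had 8.12 in Ccrl2, 5.0 in CD74 (under the ceiling), 6.57 in CD163 and 7.35 in Trem2. Ccrl2 was 2.93-fold above CD163 and at least 3.01-fold above CD74, with 1.71-fold over Trem2 under the threshold. After quantile normalization Ccrl2 minus CD163 was 0.97 and Ccrl2 minus CD74 0.84, so neither stayed at 2-fold. Plxna1, the receptor through which Sema6d acts together with Trem2 and Tyrobp on dendritic cells and osteoclasts, had 6.39 in Ccrl2 and passed the ceiling in that library alone, with 4.91, 5.66 and 5.35 in CD74, CD163 and Trem2. Since 6.39 is below the CD74 ceiling of 6.53, no order between those libraries can be stated. Its excess of at least 1.84-fold over Trem2 was under the threshold.

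Plxnd1 is the receptor that Sema3e binds without a neuropilin. It had 8.02 in Ccrl2, 5.47 in CD74 (under the ceiling), 7.08 in CD163 and 8.04 in Trem2. Ccrl2 and Trem2 were alike to 0.02 log2 units, CD163 was 0.94 lower than Ccrl2, and CD74 was at least 2.81-fold below Ccrl2 and at least 2.85-fold below Trem2. These 2 calls were lost after quantile normalization (0.76 for Ccrl2 minus CD74 and -0.68 for CD74 minus Trem2). Nrp2, co-receptor for Sema3f and for lymphangiogenic growth factors, had 8.22 in Ccrl2, 4.89 in CD74 (under the ceiling), 8.32 in CD163 and 8.47 in Trem2. The 3 high libraries lay within 0.25 of each other, and CD74 was at least 3.23-fold below Ccrl2, 3.46-fold below CD163 and 3.84-fold below Trem2. After quantile normalization Ccrl2 minus CD74 was 0.93, under 2-fold, while the other differences stayed above it. Nrp2 was the sole family gene called between CD74 and CD163.

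Plxnc1, the receptor of Sema7a, showed the least spread of the 14 genes above the ceiling. It had 8.04 in the Ccrl2 library, 8.03 in CD74, 8.03 in CD163 and 8.36 in the Trem2 library. This evenness was lost in quantile normalization. After quantile normalization it had 7.66, 8.91, 8.43 and 7.82, with CD74 the highest.

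**Figure D2:**
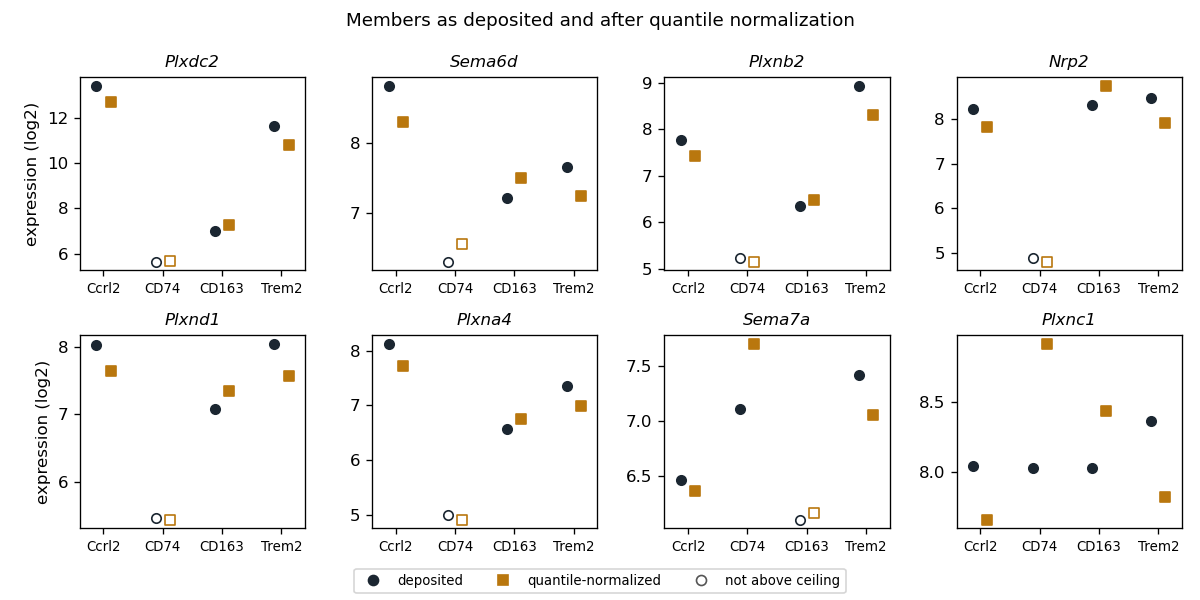
Log2 expression (vertical axis, own range in each panel) of 8 family genes in the 4 libraries, as deposited (dark circles) and after quantile normalization (orange squares), open where not above the ceiling. Plxdc2 keeps its order under both, 12.71 in Ccrl2 and 10.80 in Trem2 after normalization, whereas Plxnc1 is even as deposited and highest in CD74 (8.91) after it.

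The pairs of libraries were then compared over the whole family. Between Ccrl2 and CD74, 6 of 31 genes (19.4%) were at least 2-fold higher in Ccrl2, against 13.0% of all genes, and 0 were lower (3.16%). The 6 were Plxdc2, Sema6d, Nrp2, Plxna4, Plxnd1 and Plxnb2. Between Ccrl2 and CD163, 4 genes (12.9%) were higher in Ccrl2, against 11.4%, and 0 lower (2.04%). Those were Plxdc2, Sema6d, Plxna4 and Plxnb2. Between Ccrl2 and Trem2, 2 genes (6.45%) were higher in Ccrl2, against 2.44%, and 1, Plxnb2, was lower (3.56%).

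Between CD74 and CD163, 0 genes were higher in CD74 (2.99%) and 1 lower (3.23% of the family, against 5.79%). Between CD74 and Trem2, 0 were higher in CD74 (3.33%) and 5 lower (16.1%, against 14.3%), namely Plxdc2, Plxnb2, Nrp2, Plxnd1 and Sema6d. Between CD163 and Trem2, 0 were higher in CD163 (2.66%) and 3 lower (9.68%, against 12.1%), namely Plxdc2, Plxnb2 and Sema7a. These shares lay near those of all genes, and the pairs share libraries, so the 22 calls are not independent. With the ceiling at the 99th percentile 14 of them were kept, and those of Plxnd1 and Sema7a, those between Ccrl2 and CD74 of Nrp2, Plxna4 and Plxnb2, that between Ccrl2 and CD163 of Plxnb2 and that between CD74 and Trem2 of Sema6d were lost. Over all 31 genes the median difference ran from -0.08 (CD163 minus Trem2) to 0.08 (CD74 minus Trem2), against -0.05 to 0.05 over all genes.

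**Figure D3:**
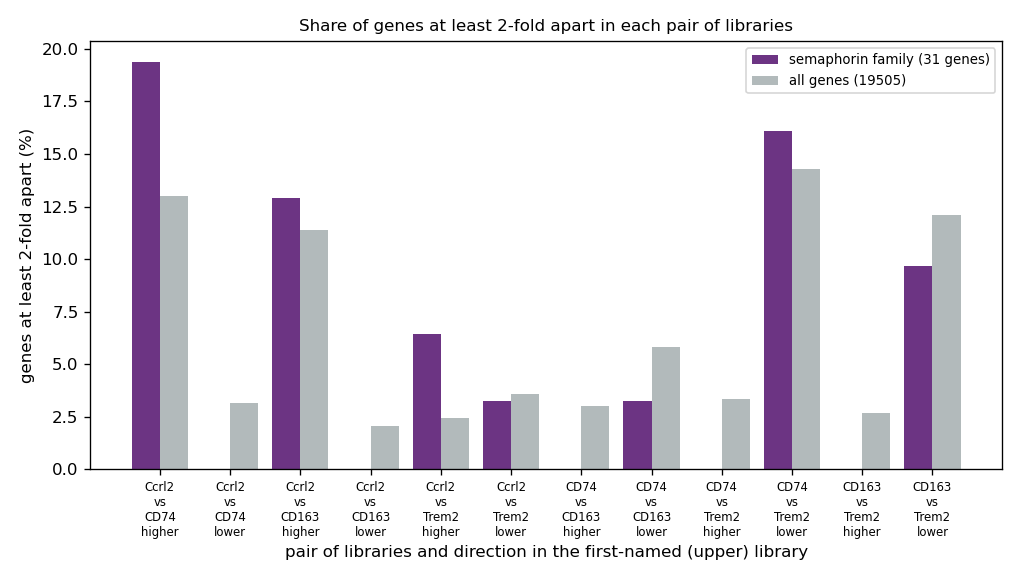
Percentage of genes at least 2-fold apart (vertical axis) for each pair of libraries and each direction, for the 31 family genes (purple) and all 19505 genes (grey). The family bars follow the grey bars, from 19.4% against 13.0% for Ccrl2 over CD74 to 9.68% against 12.1% for CD163 under Trem2.

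Most genes for the proteins that carry plexin signals were above background at the RNA level. Of 31 signal transducers on the array, 26 passed the ceiling somewhere (47.9% of all genes did). Between Ccrl2 and CD74, 9 were at least 2-fold higher and 1 lower in Ccrl2 (13.0% and 3.16% of all genes), with a median difference of 0.96 (0.05 over all genes). Between Ccrl2 and Trem2, 4 were higher and 0 lower (2.44% and 3.56%), with a median of 0.03 (0.0 over all genes). Between CD74 and Trem2, 1 was higher and 9 lower in CD74 (3.33% and 14.3%). The other 3 pairs had 7 higher and 1 lower (Ccrl2 against CD163, with 11.4% and 2.04% of all genes), 1 and 8 (CD74 against CD163, with 2.99% and 5.79%) and 1 and 2 (CD163 against Trem2, with 2.66% and 12.1%).

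Dpysl2, which encodes CRMP2, the microtubule-binding mediator of Sema3a signals, had 13.18 in the Ccrl2 library, 7.41 in CD74, 11.56 in CD163 and 11.67 in the Trem2 library. Its level in Ccrl2 was 2.85-fold that in Trem2, 3.07-fold that in CD163 and 54.6-fold that in CD74. Rnd3, an atypical small GTPase of a family that binds plexins, had 11.01 in Ccrl2, 6.53 in CD74 (not above the ceiling), 8.63 in CD163 and 9.20 in Trem2. Its level was 3.51-fold higher in Ccrl2 than in Trem2. Like Sema6d and Plxdc2, these genes were highest in Ccrl2 by more than 2-fold over each other library as deposited. After quantile normalization the excess of Dpysl2 over CD163 was 0.56 log2 units, under that threshold.

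The GTPase genes had another order. Rap1a, a substrate of the plexin GAP domain, had 12.10, 8.29, 9.08 and 12.56, high in Ccrl2 and Trem2. Rac1 and Rhoa were even outside CD74 as deposited, Rac1 with 18.33, 14.58, 17.90 and 18.24 and Rhoa with 13.68, 9.86, 13.57 and 13.49. After quantile normalization Rhoa was higher in CD163, by 1.09 log2 units over Trem2 and with -0.91 for Ccrl2 minus CD163. Gsk3b, the kinase that phosphorylates CRMP2, had 11.22, 8.23, 9.59 and 11.58.

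Of 15 co-receptors and other receptors, 10 were above the ceiling somewhere, against 47.9% of all genes. Between Ccrl2 and CD74, 4 were higher and 0 lower in Ccrl2 (13.0% and 3.16% of all genes), and between Ccrl2 and Trem2 0 were called (2.44% and 3.56%), with a median difference of -0.09. Cd72 is the B cell and macrophage receptor of Sema4d. It had 9.78 in the Ccrl2 library, 6.74 in CD74, 6.38 in CD163 and 10.21 in the Trem2 library. Sema4d was above the ceiling only in the libraries where Cd72 was high, but no 2-fold difference was called for Sema4d. Of 5 B cell markers, 4 were above the ceiling in the Ccrl2 library, 5 in CD74, 1 in CD163 and 5 in the Trem2 library, with summed log2 levels of 35.7, 37.5, 25.0 and 45.5, and their part in the Cd72 values was not tested. Tyrobp, the signalling adaptor of Trem2, had 10.15, 6.84, 9.37 and 10.40. Kdr, the endothelial VEGF receptor that pairs with neuropilins, had 9.20, 5.44 (under the ceiling), 6.59 and 9.03, and Flt1 had 7.39, 4.59 (under the ceiling), 6.93 and 7.48. Nrcam, a neural adhesion molecule, had 5.71 in the Ccrl2 library, 5.97 in CD74, 7.20 in CD163 and 5.23 in the Trem2 library, with CD163 the highest and the CD74 and Trem2 values under their ceilings. Itgb1, the integrin chain that Sema7a engages, had 14.65, 12.16, 13.09 and 13.86.

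Of 10 other ligands of the neuropilins, the Plxdc proteins and their partners, 9 were above the ceiling somewhere (47.9% of all genes). Between Ccrl2 and CD74, 2 were higher and 0 lower in Ccrl2 (13.0% and 3.16%), and between Ccrl2 and Trem2 0 were higher and 1, Tgfb1, lower (2.44% and 3.56%). Tgfb1, which neuropilins bind, was lower in Ccrl2 (10.86) and CD74 (9.56) than in CD163 (12.39) and Trem2 (12.20), with CD74 minus Trem2 at -0.67 after quantile normalization, under 2-fold. Nid1, a basement membrane glycoprotein whose human form binds PLXDC1, had 8.94 in the Ccrl2 library, 7.71 in CD74, 6.67 in CD163 and 8.54 in the Trem2 library. Vegfa had 7.19, 5.97 (under the ceiling), 6.72 and 6.91. Hgf, the ligand of the plexin partner Met, was above the ceiling in Trem2 alone, at 6.42.

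**Figure D4:**
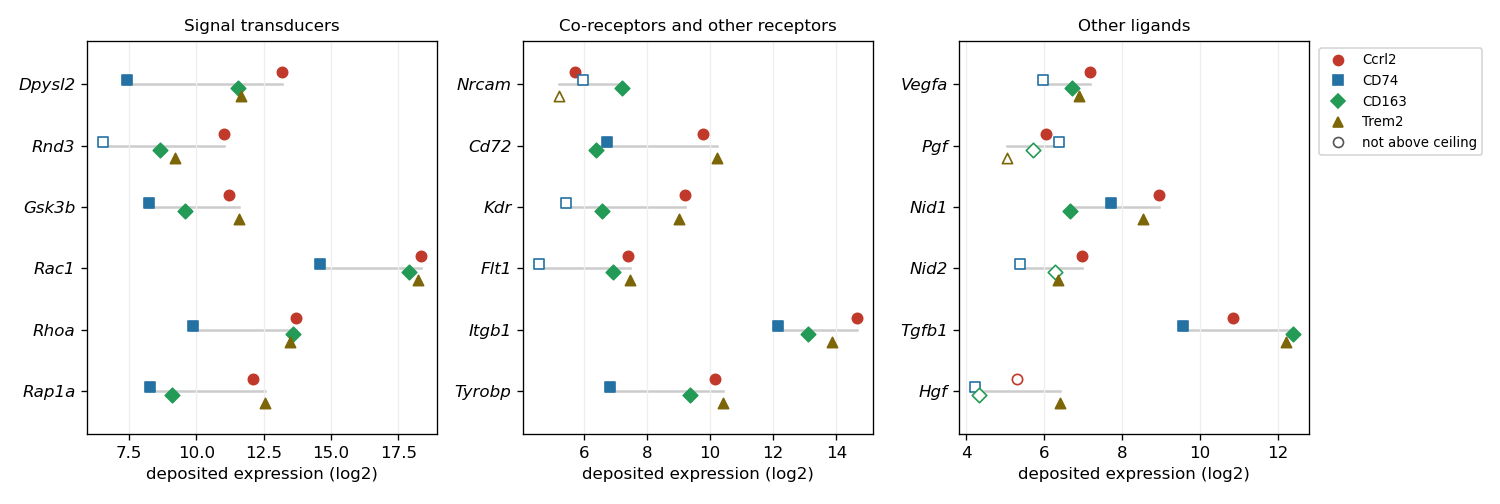
Deposited log2 expression (horizontal axes, own range in each panel) of the signal transducers, co-receptors and other ligands with the widest ranges, 1 point per library, open where not above the ceiling. Dpysl2 and Rnd3 lie furthest right in Ccrl2 (13.18 and 11.01), while Cd72 is high in Ccrl2 (9.78) and Trem2 (10.21) and low in CD74 (6.74) and CD163 (6.38).

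Genes of other axon guidance systems were counted in the same way. Of 35 slit, robo, netrin, ephrin and related genes on the array, 11 passed the ceiling somewhere, against 47.9% of all genes. Between Ccrl2 and CD74, 0 were higher and 2 lower in Ccrl2 (13.0% and 3.16%), and between Ccrl2 and Trem2 0 were called (2.44% and 3.56%). Epha2, a receptor for ephrin A ligands, had 6.90 in the Ccrl2 library, 4.63 in CD74, 5.59 in CD163 and 6.45 in the Trem2 library, with the middle pair under their ceilings. Unc5d, a netrin receptor, had 5.01 in the Ccrl2 library, 7.45 in CD74, 5.72 in CD163 and 4.09 in the Trem2 library, and passed the ceiling in CD74 alone.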

How the data were processed

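Total RNA of 4 sorted cell populations was reverse transcribed, amplified with a kit for small inputs, biotin-labelled and hybridised to Clariom S mouse arrays, per the labels' protocols. The authors corrected the background, normalized and summarised with the robust multichip average, and the same protocols name GeneSpring GS 11. Affymetrix Expression Console is listed too, per the submitters' processing notes. The settings and the probe annotation build were not given in the sources used here. What the authors deposited was read as log2 from their range of 2.97 to 19.93. The 95th percentile of all probe sets was 10.09 in the Ccrl2 library, 8.45 in CD74, 9.06 in CD163 and 10.21 in the Trem2 library, so the columns did not share a distribution.

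Of 28846 probe sets, 19572 had 1 symbol in the platform annotation. For 55 genes with several, none of them in the family, the probe set with the highest mean over the 4 columns was used, leaving 19505 genes. Calls required 1 log2 unit and a value above the ceiling, and percentages are over all 19505 genes. No p-value was computed, since each population was 1 array, and precision is limited by that number. The code of the calling rule was checked on simulated data in which the libraries shared their levels apart from small noise. Changes were put only in genes above the ceiling, so the check says nothing of the noise of these arrays. The members, gene lists and rules were chosen with earlier results of these data known. All family genes are accounted for, and of other lists up to 6 genes with the widest range were eligible to be named. Alternatives were quantile normalization, median centring, no ceiling, a ceiling at the 99th percentile, the mean over probe sets and leaving out each library. Python 3.11.15, pandas 2.3.3 and numpy 2.4.6 were used.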

Additional observations from a re-analysis of the deposited data

How the results depend on the processing

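Of 22 differences of at least 2-fold in 7 family genes, 11 stayed at least 2-fold in the same direction under quantile normalization, median centring and a ceiling at the 99th percentile. Leaving out the ceiling or averaging probe sets could not lose a call by construction, since a bound can only widen and each family gene had 1 probe set. The 11 were all 5 of Plxdc2, and those of Nrp2 (CD74 below CD163 and Trem2), Plxnb2 (CD74 and CD163 below Trem2) and Sema6d (Ccrl2 above CD74 and Trem2). No such difference of a family gene turned its sign under these settings. Quantile normalization kept 11 of the 22 and added 6, median centring kept 22 and added 2, no ceiling kept 22 and added 23, the stricter ceiling kept 14 and added 0, and the mean over probe sets kept 22.

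Quantile normalization gave 2 genes higher and 3 lower in Ccrl2 than in CD74, 1 higher in Ccrl2 than in CD163, 0 lower in Ccrl2 than in Trem2, 1 higher in CD74 than in CD163, and 2 higher and 3 lower in CD74 than in Trem2. Against each other library it gave 1 higher in Ccrl2 (Plxdc2), 0 lower in CD74 and 0 higher in Trem2. Without a ceiling, 1 was lower in Ccrl2 than in CD74, 2 lower in Ccrl2 than in CD163, 2 higher and 5 lower in CD74 than in CD163, 3 higher in CD74 and 3 higher in CD163 than in Trem2, and 5 lower in CD74 than in each other. With the stricter ceiling, 2 were higher in Ccrl2 than in CD74, 3 lower in CD74 than in Trem2 and 0 lower in CD74 than in each other. A stricter ceiling leaves less room for a bound by construction, and for quantile normalization the cause was not tested.

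Leaving out 1 of the libraries compared against could not lose a call by construction, since a gene then has fewer libraries to differ from. It gave 2 to 4 genes higher in Ccrl2 than in each remaining library (4 without Trem2) and 1 to 5 lower in CD74 (5 without CD163). It gave 0 to 2 lower in CD163 (2 without CD74), 1 to 2 higher in Trem2 (2 without Ccrl2), and 0 for the other 4 counts. Among the other named genes, 4 differences turned after quantile normalization: Itgb1 to 0.25 for CD74 minus Trem2, Tyrobp to 0.06 for CD163 minus Trem2, and Nid1 to -0.12 and Tgfb1 to -0.56 for Ccrl2 minus CD74. No paired analysis was possible because each population was 1 library.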
